A study of Mus musculus with 6 samples.

Results

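The polypeptide GalNAc-transferases, encoded by the Galnt genes, carry out the first step of mucin-type O-glycosylation. They stand in the Golgi and move N-acetylgalactosamine (GalNAc) from UDP-GalNAc onto serine or threonine of proteins that pass through it. Each enzyme joins a catalytic domain, whose DxH motif holds the metal ion, to a lectin domain that binds GalNAc already placed, and the members differ in whether they act on bare peptides or follow up on glycosylated ones. The 10 genes described here are Galnt1, Galnt2, Galnt3, Galnt4, Galnt6, Galnt7, Galnt9, Galnt10, Galnt11 and Galnt12, out of 36137 genes matched to the annotation. The family was selected on a result of these same libraries, the low level of Galnt10 in Drp1 KO cells. Levels, fold changes and calls of the members are therefore given as a description, and no test of them is independent support.

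The libraries come from mouse bone marrow-derived macrophages (BMDMs), grown for 7 days with L929-cell medium and then kept for 8 hours in hypoxia serum starvation (HSS, by the labels 2.1% oxygen), a culture model of ischemia. There were 3 WT libraries and 3 Drp1 KO libraries. By the methods of the study, WT mice were LysM-Cre+/- Drp1+/+ and Drp1 KO mice were LysM-Cre+/- Drp1 fl/fl, so both groups carried the Cre transgene, which the lysozyme M promoter drives in myeloid cells. The sample titles label the libraries of each group as biological replicates. Marrow of the mice of a genotype was pooled, and whether each library came from a pool of its own is not said. How far the spread between libraries is that between mice is therefore not known.

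The WT libraries held 24269850 to 28650715 estimated reads, and the Drp1 KO libraries 23389488 to 32231206. Levels within a gene are in CPM (counts relative to library size, scaled by edgeR's TMM factors), and levels between genes are in TPM (transcripts as a share of all transcripts in the library, which takes length into account). The targeted gene, Dnm1l, had 72.7, 69.9 and 75.1 CPM in WT libraries 1 to 3 and 58.7, 60.7 and 66.3 CPM in Drp1 KO libraries 1 to 3. Its fold change did not pass the test (log2 fold change -0.23, standard error 0.092, adjusted p = 0.248, edgeR), and a sum over the whole gene cannot show whether the deleted part was read. The summed level of 7 macrophage markers was 12554 to 13779 CPM in WT against 11204 to 13661 in Drp1 KO libraries, and none of the 7 was under 1 CPM throughout. Of these, Csf1r and Mertk were lower and Fcgr1 was higher in Drp1 KO (adjusted p under the threshold, edgeR). The summed level of 8 neutrophil markers was 6.86 to 21.1 CPM in WT against 20.5 to 48.4 in Drp1 KO libraries, with Camp, Ly6g, Mpo and Elane under 1 CPM in every library, and 0 of its 6 tested genes passed in edgeR, with 4 at an unadjusted p under 0.05, against 16.4% of all genes. DESeq2 called 2 of them and gave no adjusted p for 2, against 8.80% called of all genes to which it gave one. When the libraries were paired by number, 4 were called, all higher, against 12.0% of all genes. All 5 epithelial markers were under 1 CPM in every library. The part of these differences in the values below was not tested, and in bulk RNA fewer cells of a type and less RNA per cell cannot be told apart.

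To show what the members share, the coding sequence around the DxH motif is given for 6 of them, 51 bases each, 5′ to 3′ on the coding strand, with the 9 bases of the motif in capitals. Galnt10 and Galnt7 are the pair that prefers glycosylated peptides, Galnt2 and Galnt6 act early, and Galnt4 and Galnt12 are close relatives that follow up.

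Galnt10: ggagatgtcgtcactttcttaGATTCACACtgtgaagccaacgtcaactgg

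Galnt7: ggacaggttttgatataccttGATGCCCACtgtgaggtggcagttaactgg

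Galnt2: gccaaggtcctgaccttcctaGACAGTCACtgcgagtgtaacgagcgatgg

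Galnt6: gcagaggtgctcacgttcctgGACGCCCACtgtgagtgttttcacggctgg

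Galnt4: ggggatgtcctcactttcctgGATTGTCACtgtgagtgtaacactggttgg

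Galnt12: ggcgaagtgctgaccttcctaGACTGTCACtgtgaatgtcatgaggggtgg

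On GRCm39 the Galnt10 window is chr11:57656505-57656555, that of Galnt2 chr8:125054872-125054922 and that of Galnt4 chr10:98944934-98944984, all on the plus strand. The Galnt12 window is chr4:47108510-47108560 on the plus strand. The windows of Galnt6 (chr15:100601444-100602022) and Galnt7 (chr8:57998398-57998708), both on the minus strand, each run across an intron that is left out of the letters. Of the 5935 distinct 31-base words in Galnt10 transcripts, 0 occur in a transcript of another gene, and the same holds for Galnt2, Galnt7, Galnt9 and Galnt12. Galnt4 shares 391 of its 5059 words with Poc1b, in which it lies on the same strand. Galnt11 shares 480 of 7131, of which 276 are also in E130116L18Rik, and Galnt1 shares 309 of 5805, of which 252 are also in Frs2. The levels of these 3 genes therefore rest partly on how the reads were divided.

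Galnt1, the broadly acting member, Galnt6 and Galnt2 made up most of the family's RNA in WT BMDMs. Per length, Galnt1 stood at 79.6 ± 4.77 TPM and Galnt6 at 76.2 ± 8.46 TPM (SD, n = 3), and their libraries overlapped. Galnt2 followed with 45.1 ± 7.64 TPM, Galnt7 with 24.2 ± 2.19 TPM and Galnt11 with 16.4 ± 0.374 TPM. Each of these steps was larger than the spread, since no library of one gene reached a library of the next. Part of the Galnt2 value came from short noncoding transcripts, and its coding transcript had 34.8 ± 2.36 TPM. Galnt10 came sixth with 6.96 ± 0.461 TPM, just above Galnt4 with 5.75 ± 0.339 TPM, again without overlap. Galnt3, at 3.04 ± 1.55 TPM, overlapped Galnt12, at 2.09 ± 0.142 TPM. Much of the Galnt3 value came from a noncoding transcript: its coding transcript had 0.797 ± 0.458 TPM, and no library of it reached Galnt12, in WT or in Drp1 KO. Galnt9, known mainly from brain, was last with 0.0960 ± 0.0841 TPM.

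In Drp1 KO BMDMs, the order was the same except at 2 places. Galnt6 (68.2 ± 2.27 TPM) and Galnt1 (67.2 ± 0.980 TPM) overlapped and changed places. By coding transcripts alone they did not change places: Galnt6 had the higher mean in both groups, against 75.9 ± 3.72 TPM for Galnt1 in WT, where they overlapped, and 63.3 ± 2.03 TPM in Drp1 KO, where they did not. Galnt10, at 2.90 ± 0.461 TPM, stood below Galnt4, at 5.90 ± 0.276 TPM, and no library of the one reached the other. The ratio of Galnt4 to Galnt10 was 0.807, 0.839 and 0.834 in WT libraries 1 to 3 and 2.12, 2.43 and 1.68 in Drp1 KO libraries 1 to 3. Galnt4 itself differed little between the groups, so the exchange of places lay with Galnt10.

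**Figure D1:**
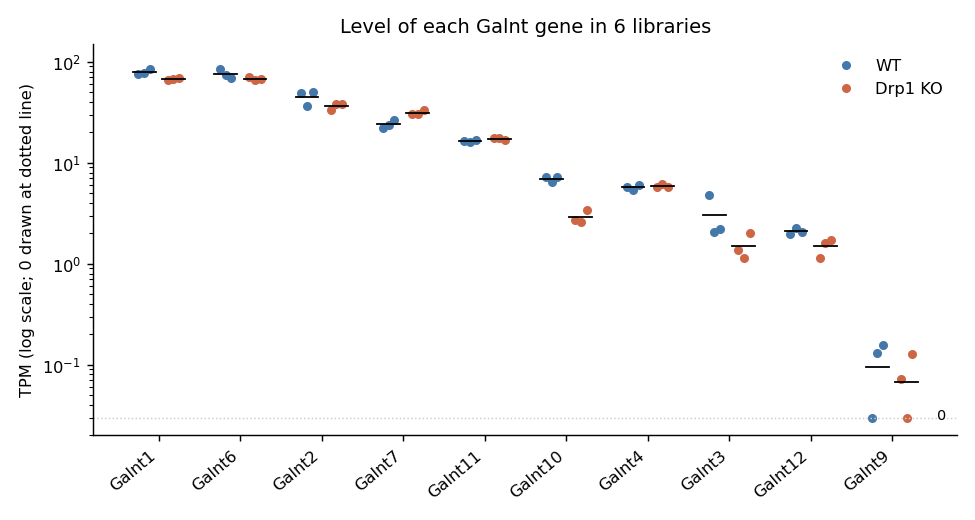
TPM of the 10 members (log axis) in the 3 WT and 3 Drp1 KO libraries; points are libraries and lines are group means. The Galnt10 points of the 2 groups lie apart, at 6.43 to 7.28 TPM in WT and 2.56 to 3.42 TPM in Drp1 KO, while those of Galnt4 next to it lie together.

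Galnt10 (ENSMUSG00000020520, chr11:57536247-57679443, plus strand), which adds GalNAc beside residues that already carry one, held 624, 660 and 762 counts in WT libraries 1 to 3 and 242, 332 and 412 counts in Drp1 KO libraries 1 to 3. On the CPM scale these were 26.9, 24.7 and 26.0 in WT and 11.0, 10.1 and 12.6 in Drp1 KO. The groups lay far apart, with the highest Drp1 KO library under the lowest WT library. The level was 25.9 ± 1.09 CPM in WT against 11.3 ± 1.27 in Drp1 KO (SD, n = 3 each), which is 2.30-fold lower in Drp1 KO (log2 fold change -1.20, standard error 0.122). Taken by library number, the level in Drp1 KO was 0.408, 0.410 and 0.487 times that in WT, and the log2 fold change was -1.29 to -1.12 with each library left out in turn. Both Galnt10 transcripts with reads code for protein. The full-length Galnt10-201 took 96.7%, 97.9% and 97.5% of the gene's counts in WT and 97.6%, 97.3% and 95.7% in Drp1 KO, so the shares overlapped and the difference was one of the gene as a whole.

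Galnt10 was the 1 member of 10 with an adjusted p under 0.05 in edgeR's test over all genes, against 3.36% of the 18506 genes tested in either direction and 1.06% called lower. It was also the 1 member that differed by over 25% at an unadjusted p below 0.05, against 12.7% of all genes. When libraries were paired by their number, Galnt2 was called too, which made 2 members, against 12.0% of all genes. All 10 members had at least 10 counts in total and were tested. As the members were selected on this contrast, nothing is read from these counts. The median log2 fold change was -0.20 over the 10 members and 0.0046 over all genes tested. The WT and Drp1 KO libraries did not overlap in CPM for 6 of the 10 members, against 21.9% of all genes: Galnt1, Galnt2, Galnt10 and Galnt12 were lower in every Drp1 KO library, and Galnt7 and Galnt11 were higher.

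**Figure D2:**
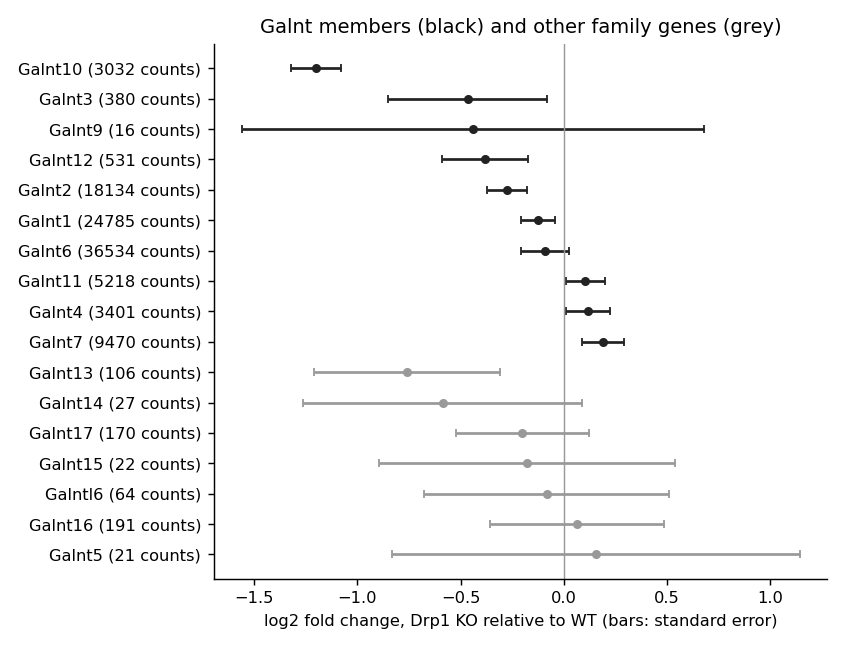
Log2 fold change of Drp1 KO relative to WT with its standard error for the 10 members (black) and the 7 other family genes with enough counts (grey); total counts over the 6 libraries stand beside each name. Galnt10 lies at -1.20, and the other members with over 1000 counts lie between -0.27 and 0.19.

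Galnt7 (ENSMUSG00000031608, chr8:57976860-58106088, minus strand), the nearest relative of Galnt10, was on the other side of zero. It had 50.02, 53.6 and 54.7 CPM in WT libraries 1 to 3 and 58.0, 55.6 and 66.8 CPM in Drp1 KO libraries 1 to 3. The lowest Drp1 KO library was only just above the highest WT library, and the log2 fold change was 0.19 (standard error 0.102). Per length the gap was wider, 24.2 ± 2.19 TPM in WT and 31.2 ± 1.80 TPM in Drp1 KO (SD, n = 3 each), and it lay in a short transcript described further on. Of the TPM of this glycopeptide-preferring pair, Galnt10 made up 24.3%, 21.4% and 21.5% in WT libraries and 8.21%, 7.86% and 9.34% in Drp1 KO libraries. Of their coding transcripts alone, it made up 28.9%, 25.5% and 26.1% in WT and 13.4%, 12.8% and 12.9% in Drp1 KO, so the groups lay apart on both counts.

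Galnt1 (ENSMUSG00000000420) and Galnt2 (ENSMUSG00000089704, chr8:124958099-125072466, plus strand), which start many O-glycans, were both somewhat lower in Drp1 KO. Galnt1 had 157, 154 and 156 CPM in WT libraries and 144, 141 and 143 CPM in Drp1 KO libraries. These values were tight within each group and apart by a small step, a log2 fold change of -0.13 (standard error 0.082). Galnt2, which glycosylates plasma proteins such as apolipoprotein C-III in liver, had 122, 114 and 123 CPM in WT against 95.2, 92.0 and 109 in Drp1 KO. The groups came within a few CPM of each other at WT library 2 and Drp1 KO library 3, and the log2 fold change was -0.27 (standard error 0.097). By library number, Galnt2 in Drp1 KO was 0.782, 0.808 and 0.888 times its level in WT. In TPM the groups overlapped for the whole gene, at 36.3 to 49.6 in WT and 33.5 to 38.2 in Drp1 KO. For the coding transcript of Galnt2 they did not, at 32.7 to 37.4 TPM against 24.7 to 31.1.

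Galnt6 (ENSMUSG00000037280, chr15:100587797-100627258, minus strand) and Galnt3 (ENSMUSG00000026994, chr2:65913110-65955482, minus strand), which glycosylates the hormone FGF23, form a subfamily, and neither separated the groups. Galnt6 had 263, 225 and 198 CPM in WT libraries 1 to 3 and 229, 211 and 205 CPM in Drp1 KO libraries 1 to 3. Its log2 fold change was -0.09 (standard error 0.115), and it ran from -0.20 to 0.019 as each library was left out. Galnt3 had 4.57, 1.87 and 1.70 CPM in WT against 1.45, 1.92 and 2.42 in Drp1 KO. WT library 1 stood above all the others: the log2 fold change of Galnt3 was -0.46 (standard error 0.385) with it and 0.12 without it.

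Galnt4 (ENSMUSG00000090035, chr10:98944021-98949109, plus strand) and Galnt12 (ENSMUSG00000039774, chr4:47091905-47123070, plus strand) form another subfamily. Galnt4 had 20.3, 18.7 and 19.6 CPM in WT against 21.3, 22.5 and 19.9 in Drp1 KO, which overlapped (log2 fold change 0.12, standard error 0.107). Galnt12 had 3.49, 3.94 and 3.37 CPM in WT against 2.18, 2.99 and 3.07 in Drp1 KO. All Drp1 KO libraries were below the WT libraries, but the counts behind them were few, 48 to 105 a library, and the log2 fold change of Galnt12 was -0.38 with a standard error of 0.209.

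Galnt11 (ENSMUSG00000038072, chr5:25426902-25470917, plus strand), which modifies linkers of LDL-receptor-family proteins and Notch1, had 31.5, 29.5 and 29.6 CPM in WT against 33.0, 32.8 and 31.6 in Drp1 KO. The step between the groups was narrow (log2 fold change 0.10, standard error 0.095). In TPM the groups overlapped, at 16.11 to 16.83 in WT and 16.81 to 17.60 in Drp1 KO. Its coding transcripts alone overlapped too, at 13.2 to 13.9 TPM and 13.4 to 14.6 TPM. Galnt9 (ENSMUSG00000033316, chr5:110691867-110772427, plus strand) had 0, 4 and 5 counts in WT and 2, 0 and 5 counts in Drp1 KO. A level of 3 counts, the limit that a count of 0 allows, corresponds to 0.0917 to 0.136 CPM here (counting error only), so a difference in Galnt9 was not detectable at this depth.

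The TPM of the 10 members added up to 269, 244 and 265 in WT libraries 1 to 3 and to 229, 231 and 237 in Drp1 KO libraries 1 to 3. The family as a whole was thus lower in every Drp1 KO library (259 ± 13.3 TPM in WT and 232 ± 3.90 TPM in Drp1 KO, SD, n = 3 each). Without Galnt10 the sums still did not overlap, at 238 to 262 TPM in WT and 227 to 233 TPM in Drp1 KO, since Galnt10 made up 2.68 ± 0.0605% of the family in WT and 1.246 ± 0.177% in Drp1 KO. Galnt1, Galnt6 and Galnt2 together were 77.4 ± 0.777% of the family in WT and 74.0 ± 0.606% in Drp1 KO. The share of Galnt7 was 8.28%, 9.68% and 10.0% in WT libraries and 13.2%, 13.0% and 14.05% in Drp1 KO libraries. Over coding transcripts alone the Galnt7 share was 7.32% to 8.70% in WT and 8.71% to 10.9% in Drp1 KO, so the groups all but touched, while the coding sum of the family was 228 to 240.4 TPM in WT and 197 to 212 TPM in Drp1 KO.

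**Figure D3:**
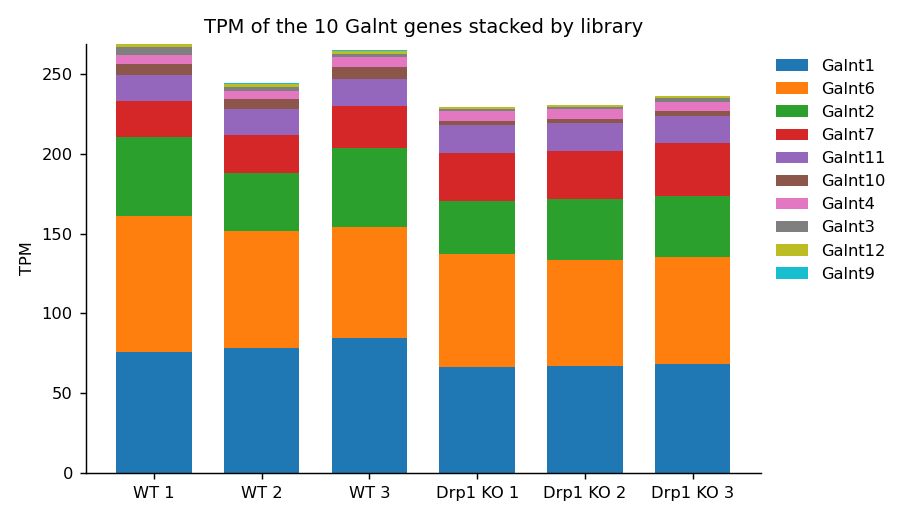
TPM of the 10 members stacked for each of the 6 libraries. The Drp1 KO stacks reach 229 to 237 TPM, under all 3 WT stacks at 244 to 269 TPM, and Galnt1, Galnt6 and Galnt2 fill most of each.

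The other family genes in the annotation were barely present. Galntl5 had no counts, and Galnt18 had 3 counts over the 6 libraries, too few to test. Galnt16, at 1.11 ± 0.398 CPM in WT against 1.14 ± 0.585 in Drp1 KO, and Galnt17, at 1.08 ± 0.274 CPM and 0.940 ± 0.112 CPM, were the most abundant by CPM. Galnt13 followed with 0.789 ± 0.145 CPM in WT against 0.453 ± 0.240 in Drp1 KO (log2 fold change -0.76, standard error 0.449, adjusted p = 0.46, edgeR). Galnt5, Galnt14, Galnt15 and Galntl6 each had a mean under 1 CPM in both groups. None of the 7 tested genes passed an adjusted or an unadjusted p of 0.05 in edgeR, and none passed with libraries treated as pairs or in DESeq2, which gave no adjusted p for 5 of them.

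Transcripts within a gene were then compared, because a gene's sum can hide a change among coding and noncoding forms. Of 36 member transcripts in the files, 29 had at least 10 counts in total, and 27 of these belonged to the 7 members with 2 or more (Galnt1, Galnt2, Galnt3, Galnt6, Galnt7, Galnt10 and Galnt11). The share of the gene's counts did not overlap between the groups for 8 of the 27, against 16.5% of 54858 such transcripts over all genes. By edgeR's diffSpliceDGE, 0 of the 7 members had a difference in transcript use at an adjusted p under 0.05, against 4.81% of 11121 genes, and 1, Galnt7, had an unadjusted p under 0.05, against 17.3% of these genes. In simulated data this test called many unchanged genes. limma's diffSplice, added after the data were seen, called 1 of the 7, again Galnt7, against 5.93% of all genes. The test compares the same libraries as the choice of the family, so it is given as a description too.

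A few exons tell the Galnt7 transcripts apart, all on the minus strand of chromosome 8 of GRCm39. Galnt7-201 and Galnt7-202, which both code for protein, use one each of a pair of neighboring exons of 183 bases, chr8:57995546-57995728 and chr8:57995869-57996051. The pair is identical at 126 bases, and the 57 that differ are in capitals. Neither holds the DxH codons printed above. Another, chr8:57991389-57991487, is the first exon of Galnt7-203, a transcript with no defined coding sequence whose other 5 exons overlap those of other Galnt7 transcripts.

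Galnt7-201 exon: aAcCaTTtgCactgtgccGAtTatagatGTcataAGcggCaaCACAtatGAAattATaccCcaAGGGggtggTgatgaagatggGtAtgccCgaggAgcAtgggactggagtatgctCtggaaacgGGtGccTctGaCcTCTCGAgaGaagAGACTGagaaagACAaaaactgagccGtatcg

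Galnt7-202 exon: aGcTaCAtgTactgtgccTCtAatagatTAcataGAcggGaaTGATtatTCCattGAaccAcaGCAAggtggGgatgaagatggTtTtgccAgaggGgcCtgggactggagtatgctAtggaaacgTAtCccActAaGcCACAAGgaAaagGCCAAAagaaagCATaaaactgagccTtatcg

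Galnt7-203 first exon: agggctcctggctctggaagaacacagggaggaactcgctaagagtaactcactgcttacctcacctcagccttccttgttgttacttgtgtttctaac

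Galnt7-203 took 4.20%, 3.81% and 4.29% of the gene's counts in WT libraries 1 to 3 and 11.7%, 11.6% and 7.45% in Drp1 KO libraries 1 to 3, from 48.8 to 68.8 estimated counts in WT and 149 to 211 in Drp1 KO. The groups lay apart, with Drp1 KO library 3 nearest to WT. None of the 69 words of 31 bases in its first exon occurs in a transcript of another gene. As the transcript is short, it weighed more on the TPM scale, 4.06 to 4.999 TPM in WT and 9.79 to 12.2 TPM in Drp1 KO. The 2 coding transcripts together had 17.6, 18.8 and 20.6 TPM in WT and 17.4, 17.4 and 23.1 TPM in Drp1 KO, which overlapped, unlike the TPM of the whole gene. The alternative exon of Galnt7-202 showed no order: the transcript took 15.0%, 5.20% and 8.11% of counts in WT and 5.46%, 4.09% and 7.64% in Drp1 KO. The intron-retaining Galnt7-204 was 1.56% to 2.06% in WT and 0.765% to 1.56% in Drp1 KO, so the groups all but touched.

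The shares of some transcripts also lay apart in Galnt1, Galnt3 and Galnt6. Within Galnt1, the share of the coding transcript Galnt1-206 was 18.1%, 16.3% and 13.1% in WT and 12.1%, 10.9% and 7.61% in Drp1 KO, and that of Galnt1-208, the main form, was 69.6% to 78.6% and 79.0% to 84.5%. Both are coding, and all coding transcripts of Galnt1 together had 75.9 ± 3.72 TPM in WT and 63.3 ± 2.03 TPM in Drp1 KO (SD, n = 3 each). In TPM the main form overlapped, at 47.0 to 57.9 in WT and 46.7 to 52.7 in Drp1 KO. Galnt1-206 was lower without overlap (8.32 to 10.5 TPM against 4.09 to 6.09). So was the short coding Galnt1-203 (11.5 to 13.3 TPM against 6.26 to 7.58), also in its share of counts. In Galnt3, the short noncoding Galnt3-204 took 26.0%, 26.5% and 22.7% of counts in WT and 12.9%, 8.36% and 14.01% in Drp1 KO, from at most 27.6 estimated counts. The coding Galnt3-201 had 0.520 to 1.33 TPM in WT and 0.419 to 0.807 TPM in Drp1 KO, which overlapped. Galnt6-203, which has a first exon of its own, rested on 15.7 to 29.2 counts in WT and 49.2 to 70.6 in Drp1 KO, and its share was 0.261% to 0.502% in WT and 0.873% to 1.02% in Drp1 KO.

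**Figure D4:**
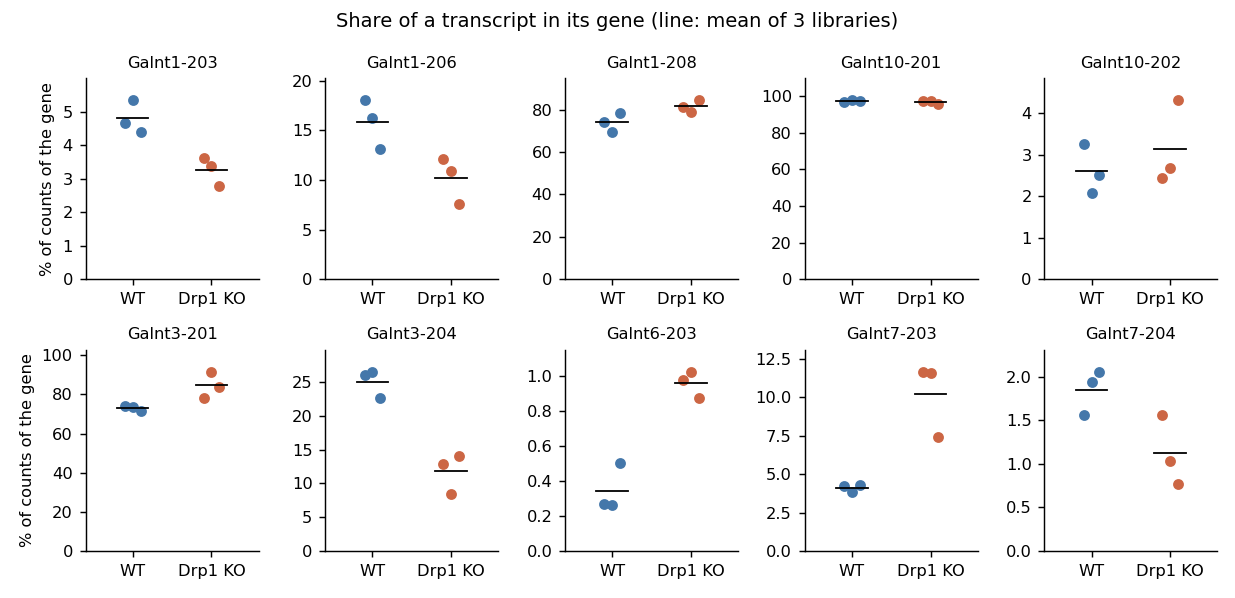
Share of 10 transcripts in the counts of their gene, in percent, for the 3 WT and 3 Drp1 KO libraries; points are libraries, lines are means, and each panel has its own axis from 0. The 8 without overlap between the groups are shown with both of Galnt10. Galnt7-203 lies at 3.81% to 4.29% in WT and 7.45% to 11.7% in Drp1 KO, whereas Galnt10-202 overlaps.

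After the first GalNAc, other Golgi enzymes lengthen and cap the glycan, nucleotide sugar enzymes supply them, and membrane proteins carry the result. These steps were followed in 50 genes, 47 of them with enough counts. At an adjusted p under 0.05 (edgeR), 2 were higher in Drp1 KO and 0 lower, next to the 3.36% of all genes, and 13 had an unadjusted p under 0.05, against 16.4% of all genes. The median log2 fold change of the 47 genes was -0.012. When libraries were paired by number, 10 were called, 7 higher and 3 lower, against 12.0% of all genes. DESeq2, which gives no adjusted p to many genes of low counts, called 6, against 8.80% of the 13119 genes to which it gave one.

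Of 8 core and extension genes, 1 rose in edgeR, while DESeq2 called 2 and pairing by number 3, all higher. Over all genes with an adjusted p in each, 3.36%, 8.80% and 12.0% were called. Gcnt1, which branches core 1 into core 2 O-glycans, had 40.8, 36.9 and 45.3 CPM in WT against 69.2, 71.0 and 88.0 in Drp1 KO. All Drp1 KO libraries lay well above the WT libraries (log2 fold change 0.89, standard error 0.123, adjusted p = 0.00391, edgeR), and the call held in each of 13 other settings. C1galt1, the core 1 synthase that acts directly on the product of the Galnt enzymes, was looked at after its values were seen. It had 71.5 ± 1.41 CPM in WT against 92.4 ± 8.31 in Drp1 KO (SD, n = 3 each), with a log2 fold change of 0.37 and an adjusted p of 0.0705 in edgeR. It was called when libraries were paired (adjusted p = 0.0141, edgeR), with DESeq2 and without Drp1 KO library 1. The third gene called under pairing was B4galt1 (log2 fold change 0.32 and adjusted p = 0.03 in that edgeR fit, against an adjusted p of 0.322 unpaired). B4galt5, the gene of this list with the highest CPM, was at 208 ± 56.1 CPM and 198 ± 27.2 CPM.

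Of 12 carriers of O-GalNAc glycans, 1 rose in edgeR. DESeq2 called 2, both higher, and pairing by number 3, 2 higher and 1 lower. Of the genes to which each gave an adjusted p, 3.36%, 8.80% and 12.0% were called. At an unadjusted p under 0.05 in edgeR there were 5 of the 12, against 16.4% of all genes, and 6 of the 12 did not overlap between the groups in CPM, against 21.9%. Spn, the heavily O-glycosylated sialomucin CD43 of leukocytes, had 23.1, 17.8 and 14.8 CPM in WT against 38.4, 27.9 and 40.8 in Drp1 KO (log2 fold change 0.95, standard error 0.186, adjusted p = 0.0229, edgeR). The groups did not overlap, and the call was lost without WT library 2 or 3, or without Drp1 KO library 3 (adjusted p up to 0.144, edgeR). Lrp1, a receptor of the LDL-receptor family and the carrier with the highest CPM, though not the highest TPM, was at 1882 ± 353 CPM in WT against 1389 ± 185 in Drp1 KO (log2 fold change -0.44, adjusted p = 0.179, edgeR). Paired by number it was called (adjusted p = 0.0048, edgeR), as it was without WT library 1. Cd164, named after its values were seen, was also called under pairing and by DESeq2, with a log2 fold change of 0.40 (adjusted p = 0.0604 unpaired and 0.00822 paired, edgeR).

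None of 9 capping genes, 15 nucleotide sugar genes and 3 GalNAc-binding lectins passed in edgeR's test, and 1, 3 and 2 of them had an unadjusted p under 0.05. DESeq2 called 0, 1 and 1 of them, with no adjusted p for 3, 0 and 2, and pairing by number called 0, 2 and 2. Over all genes the shares were 16.4% at the unadjusted p and 12.0% with pairing. DESeq2 called 8.80% of the genes to which it gave an adjusted p. The genes with the highest CPM of each list were the sialyltransferase St3gal1 (80.2 ± 1.96 CPM in WT, 86.6 ± 10.4 CPM in Drp1 KO), the hexosamine pathway enzyme Gfpt1 (165 ± 4.93 CPM, 188 ± 5.86 CPM) and the macrophage galactose lectin Clec10a (9.93 ± 2.63 CPM, 6.15 ± 0.249 CPM). Clec10a had a log2 fold change of -0.69 with a standard error of 0.191 (adjusted p = 0.0883, edgeR). It was called when libraries were paired by number (adjusted p = 0.018, edgeR), with DESeq2 and with a filter of 1 count.

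Lists of neighboring functions were read alongside. None of 10 genes for other kinds of O-glycan passed in edgeR, that with the highest CPM being Oga (290 ± 5.84 CPM in WT, 293 ± 20.8 CPM in Drp1 KO). Likewise, none of 12 oligosaccharyltransferase subunits, which begin N-glycosylation, passed, with Stt3a at 320 ± 7.23 CPM and 318 ± 9.09 CPM. Each of these lists had 2 genes called, all lower, when libraries were treated as pairs, and 1 and 2 genes with an unadjusted p under 0.05 in edgeR, where all genes stood at 12.0% and 16.4%. DESeq2 called 0 and 1 of them, against 8.80% of all genes to which it gave an adjusted p. Of 14 Golgi structural genes, 1 fell: Golgb1, the tethering protein giantin, had 266, 302 and 285 CPM in WT against 216, 201 and 189 in Drp1 KO (log2 fold change -0.49, standard error 0.096, adjusted p = 0.0221, edgeR). That call was lost without WT library 2 or 3 and likewise without Drp1 KO library 2 or 3 (adjusted p up to 0.127, edgeR). With pairs, 4 of the 14 were called, and with DESeq2 3, all lower, against 12.0% and 8.80% of all genes with an adjusted p in each. At an unadjusted p under 0.05 in edgeR there were 5 of the 14, against 16.4% of all genes.

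**Figure D5:**
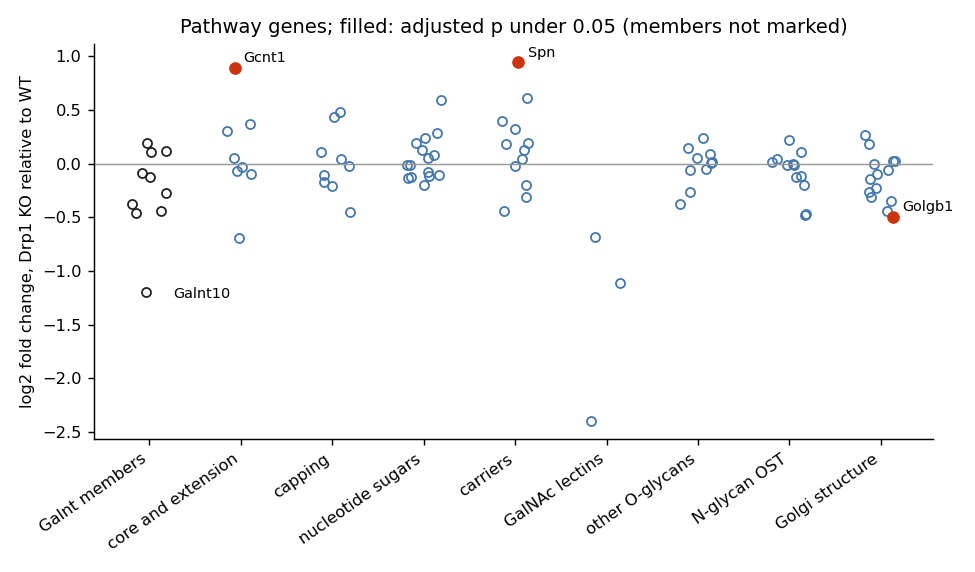
Log2 fold change of Drp1 KO relative to WT for the members and for the tested genes of 8 lists; each point is a gene, and filled points have an adjusted p under 0.05 (not marked for the members). Gcnt1 at 0.89 and Spn at 0.95 are higher and Golgb1 at -0.49 is lower, and Galnt10 lies at -1.20.

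Of 12247 other genes averaging 1 CPM or more, those whose log2 CPM followed Galnt10 most closely over the 6 libraries were Myo10, Nomo1, Gon4l, Dhx16 and Man2a1, with Pearson r of 0.995, 0.995, 0.995, 0.994 and 0.992. The 6 libraries fall into the groups that differ in Galnt10, so r includes that step and is given without a p. Myo10, an unconventional myosin, had 134, 119 and 124 CPM in WT against 69.2, 61.0 and 71.0 in Drp1 KO. Man2a1, a Golgi mannosidase of N-glycan processing, had 250.5, 241 and 244 CPM in WT against 204, 199 and 215 in Drp1 KO.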

How the data were processed

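RNA of 3 WT and 3 Drp1 KO BMDM libraries after HSS was measured. The labels name a stranded mRNA kit, and the paper polyA selection and paired-end reads. The authors ran kallisto 0.46.1 against Ensembl cDNA of GRCm39 and deposited estimated counts and TPM for each transcript, neither scaled between libraries. Effective lengths, also deposited, entered the length-scaled alternative. The submitters' processing notes also name DESeq2 1.44.0. The Ensembl release and the strand setting of kallisto are not given in the sources used here, so reads of genes antisense to a member cannot be told apart from its own. The lengths of 21 of 36 member transcripts equal those of the annotation used here.

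Transcripts were matched by identifier to GENCODE M39 (99.4% of 116873), and estimated counts were summed per gene and rounded. Genes with at least 10 counts in total were tested with edgeR 4.0.16 (R 4.3.3), TMM factors and the quasi-likelihood test without covariates, adjusted by Benjamini-Hochberg over 18506 genes. Each standard error was taken as the size of the log2 fold change over the root of the F statistic. Transcript use was tested with edgeR's diffSpliceDGE, kept as designed although it called many unchanged genes in simulated data, far more than the diffSplice test of limma 3.58.1, the added alternative. Alternatives also included DESeq2 1.42.0. Coding sequences were aligned with MAFFT 7.526 after translation to find the DxH codons. Both tests were first checked on simulated counts.

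Groups share the replicate numbers 1 to 3. Deviations from group means correlated at 0.510, 0.204 and 0.298 between libraries of the same number over 12248 genes, each over 0.1, and this check of the data is the only ground for treating equal numbers as pairs. WT library 2 correlated more with Drp1 KO library 3, at 0.326, than with its own number.

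The members and lists were chosen with earlier results of these data known. Named genes are all members and other family genes, of each pathway and comparator list the called genes (at most 4) and that with the highest CPM, the 5 genes most like Galnt10, and Dnm1l. C1galt1, B4galt1 and Cd164, and the macrophage and neutrophil markers named singly, fall outside this rule and were named after their values were seen. Dendritic, fibroblast, lymphocyte and mast cell markers summed to at most 4.94, 2.80, 4.05 and 1.22 CPM in a library, and none of them was called by edgeR, or by DESeq2, which gave most of them no adjusted p, with 1 dendritic marker and none of the others at an unadjusted p under 0.05.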

Additional observations from a re-analysis of the deposited data

How the results depend on the processing

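Galnt10, whose low level in these libraries selected the family, had a log2 fold change of -1.29 to -1.12 over 13 alternative settings on the same libraries, and neither this range nor the counts of members called is independent support. Galnt1, Galnt2, Galnt4, Galnt7, Galnt10, Galnt11 and Galnt12 kept their sign in all of them. Galnt3 turned to 0.12 without WT library 1 and was -0.95 with length-scaled counts, where Galnt7 was 0.45 in place of 0.19. Those counts are built from TPM, in which the short Galnt3-204 and Galnt7-203 weigh more. The part of these transcripts in the shifts was not tested. Galnt6 changed sign in 1 setting and Galnt9 in 2 of 12, as it could not be fitted with filterByExpr. The replicate block raised the members called from 1 to 2, the pathway genes from 2 to 10 and all genes from 621 to 2212. It changed no other call at an adjusted p among the members or the other family genes, and members called for transcript use stayed at 0. Genes called for transcript use rose from 535 to 598, and Galnt1 joined Galnt7 at an unadjusted p under 0.05 (edgeR). With at least 1 count as the filter, 5 pathway genes and 1065 genes were called, and with DESeq2 6 and 1155. Members past a difference of 25% at an unadjusted p under 0.05 were 3 with length-scaled counts (Galnt3, Galnt7 and Galnt10). In the main fit there was 1, against 12.7% of all genes. limma's diffSplice called 1 member in place of 0. With each library left out in turn, members called stayed at 1. Members past the fold change at an unadjusted p under 0.05 ranged from 1 to 2. Pathway genes called ranged from 1 to 5 and all genes called from 181 (without WT library 2) to 904 (without Drp1 KO library 1). The count of all genes called was 217 when WT library 3 was left out, and 268 and 348 for the second and the third Drp1 KO library. Depth limits Galnt9, with 16 counts in all, and the transcripts with under 100 counts.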
